A study of Mus musculus with 12 samples.

Results

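The genes described here are 45 that act in DNA replication and mitosis and whose transcripts mark cycling cells. They were taken by name from a fixed list, which was chosen with earlier results of these data known. All 45 were found among the 25655 genes of each of 2 tables, 1 for muscle and 1 for bone. The series measured RNA of sorted PDGFRα+ cells, the mesenchymal stromal and progenitor fraction, with 3' mRNA sequencing in 12 samples of mice, and its title names female mice. The muscle gate took PDGFRα+ cells negative for CD45, CD31 and Vcam1, and the bone gate left Vcam1 aside. The 3 knockout samples of each tissue carried PDGFRα-CreER, a Cre recombinase driven by the Pdgfra gene and active only with a drug that binds its receptor part, and Esr1flox/flox, floxed alleles of the estrogen receptor alpha gene. Of the 3 muscle controls, 2 carried PDGFRα-CreER alone and 1 carried PDGFRα-CreER with Esr1flox/+. Of the 3 bone controls, 2 carried PDGFRα-CreER alone and 1 carried Esr1flox/flox without the Cre. The sources used here give neither age nor drug treatment nor time. Nothing in the labels ties replicates to separate animals, so part of the spread behind each p may be technical.

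Replication starts when CDC6 and CDT1 load the MCM helicase on DNA in G1, and cyclin E and cyclin A kinases then fire it in S phase. Mitosis is driven by CDK1 with cyclin B and by Polo and Aurora kinases, is held at metaphase by a checkpoint built on BUB and TTK kinases, and ends when CDC20 and UBE2C direct the ubiquitin ligase that destroys cyclin B. Most of these genes are silent in resting cells, and their transcripts appear together when cells divide. PDGFRα+ stromal cells of adult muscle are mostly at rest, whereas blood-forming cells of the marrow divide continually.

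Each value below is the authors' own. A table gives per gene whichever group mean is larger (called the level here; its unit is not named), a log2 fold change of knockout over control, a p, and a false discovery rate (FDR) for part of the genes. The columns of single libraries carry codes that match no sample label and were not used. No value per sample, standard deviation or depth can therefore be given. Approximate 95% intervals were computed from each log2 fold change and its p. Knockout and control were compared within a tissue only. Esr1, the targeted gene, had a level of 45.6 in the muscle table with a log2 fold change of 1.021 (p = 0.404), and 75.9 in the bone table with -2.69 (p = 0.245), by the authors' deposited values. The tags come from transcript ends, and the sources used here do not say which exon is floxed, so these values do not check the labels, and knockout below means labelled as knockout.

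Cell division genes stood in the lower part of the muscle table and the upper part of the bone table. In muscle the median member had a level of 4.85 in the authors' deposited table and stood at the 24.9th percentile of the 13158 genes above 0. In bone the median level was 63.8 in the authors' deposited table, at the 88.3rd percentile of 10518 genes above 0. Every one of the 45 members ranked higher in the bone table than in the muscle table, whereas 32.2% of the 14078 genes above 0 in either table did so. The level itself was over 10 times higher in the bone table for 30 members and lower there for Kif20a and Tuba1b. A level is that of the higher group only. For 7 bone members (Mcm5, Uhrf1, Cdc20, Bub1, Bub1b, Ttk and Aurka) the level divided by the fold change gives a control mean of 0.0248 to 0.107, so their bone level is that of the knockout group. The 2 tables may have been normalized separately, so these are descriptions with no test. Tissue and sorting gate differ together and cannot be told apart, and in bulk samples fewer cells of a type and less RNA per cell cannot be told apart either.

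**Figure D1:**
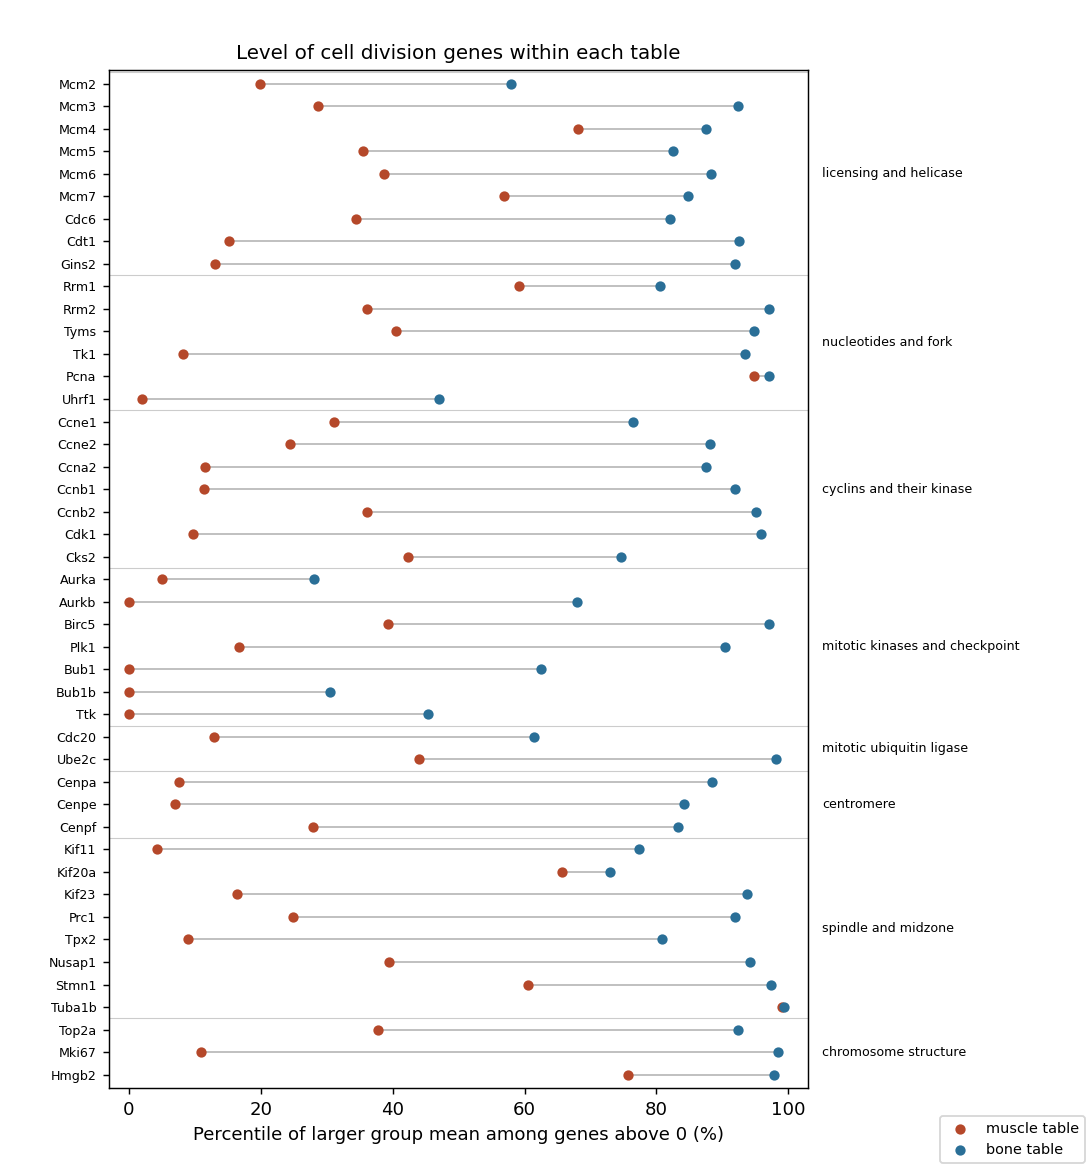
Percentile of the larger group mean of each of 45 cell division genes among all genes above 0 in the muscle table (red) and the bone table (blue), with genes grouped by role. Every bone point lies to the right of its muscle point, and Tuba1b and Pcna are the genes with high ranks in both.

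Mitotic genes had the lowest muscle levels among the members. Mki67, the gene of the Ki-67 proliferation antigen, had a level of 0.866 in the authors' deposited muscle table and 436 in the bone table. Cdk1, the kinase that drives entry into mitosis, had 0.650 there and 163 in the authors' deposited bone table. Ccnb1 and Ccna2, the cyclins that activate it, had 0.974 and 0.978 in muscle against 88.6 and 60.8 in bone. All 4 thus lay close to the smallest levels of the muscle table and high in the bone table. Bub1, a spindle checkpoint kinase gene, was listed at 0 in the muscle table and at 16.4, the knockout mean, in the bone table. Aurkb, Bub1b and Ttk, 3 further mitotic kinase genes, had the same muscle level of 0.108 in the authors' deposited table, the smallest value above 0 that it holds. Of the 30 cyclin, mitosis and chromosome genes, 13 had a muscle level under 1, Bub1 included, and none did in bone.

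Replication genes ranked above the mitotic ones in muscle. Of 15 replication genes, 2 had a muscle level under 1, Tk1 and Uhrf1, and the median level was 9.08 in the authors' deposited table. Pcna, the sliding clamp that also serves DNA repair, was at 236 in the authors' deposited muscle table and 237 in that of bone. The helicase subunit genes Mcm4 and Mcm7 had muscle levels of 35.0 and 22.5 and bone levels of 60.8 and 51.6 by the authors' deposited tables. Rrm2, the regulated subunit of the enzyme that makes deoxynucleotides, had 9.36 in muscle and 241 in bone, while its partner Rrm1 had 24.4 and 39.5 (the authors' deposited tables). Tuba1b, a tubulin gene used in every cell, had the highest level of all members in both, 1290 in muscle and 1032 in bone (the authors' deposited tables). Hmgb2 and Stmn1, a chromatin protein gene and a tubulin-binding protein gene that are also used outside division, had 49.0 and 25.5 in muscle and 327 and 261 in bone.

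Within the bone table the order of levels differed by role. After Tuba1b the highest were Mki67 at 436, Ube2c at 366, Hmgb2 at 327 and Stmn1 at 261 in the authors' deposited table. The chromosome structure genes had the highest median percentile, 97.9, and the checkpoint and mitotic kinase genes the lowest, 62.4. The latter held both Birc5, the survivin subunit of the Aurora B complex, at 238 and Aurka at 3.03, the lowest bone level of any member. The spread between replicates is not known, so it cannot be said which neighbours in this order differ. These are 3' tag values without a length term named by the header.

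Marker lists of other cells also differed between the tables, not all in the direction of the division genes. The 10 erythroid markers summed to 58.7% of all levels in bone and 0.345% in muscle, with Klf1 and Epor among those at 0 in muscle and none at 0 in bone. The 10 neutrophil markers summed to 1.06% in bone and 0.00304% in muscle, with Elane, Mpo and Ltf at 0 in muscle and none at 0 in bone. All 10 erythroid and all 10 neutrophil markers had a higher knockout mean in bone, as did 7 of the 8 macrophage markers below. These bone levels are thus knockout means, and control means were lower, with log2 fold changes of up to 12.17 among the neutrophil markers. A sum over a list may mix knockout and control means. Of 10 B-lineage markers, those at 0 included Vpreb1 and Ms4a1 in bone, and Vpreb3, Pax5, Ms4a1 and Rag1 in muscle; the list summed to 81.0 in bone and 418 in muscle, of which Ebf1, a gene that stromal cells also express, gave 415. The 8 macrophage markers summed to 1486 in bone and 95.1 in muscle, with none at 0. Lyz2, a lysozyme gene also used by neutrophils, gave 1399 and 61.4 of these sums, while Csf1r (5.93 in bone, 15.4 in muscle) and Cd68 (6.26 and 9.42) were lower in the bone table. Ptprc, which encodes the CD45 used to remove blood cells, was at 23.1 in bone and 0.781 in muscle (the authors' deposited tables). Pdgfra, the gene of the sorting marker, was at 8.60 in bone and 494 in muscle, and the 10 mesenchymal markers summed to 0.269% and 2.64%. Of these 10, Cxcl12 alone had a higher level in bone than in muscle. Endothelial markers Cdh5, Kdr and Emcn were at 0 in bone, and of 5 satellite cell markers Pax7 and Myf5 were at 0 in both tables. The other satellite markers stood in muscle at 10.3 (Myod1), 53.7 (Vcam1) and 98.4 (Sdc4), and in bone at 0, 55.9 and 102. The part of these cells in the levels of the division genes was not tested.

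Promoters of most members examined hold sequence features that the list did not use, but no feature was common to all. RefSeq windows (GRCm38.p6) from 250 bases before to 50 after a transcript start were matched by symbol for 37 members, and 27025 genes served as the comparison. Windows were searched on both strands for the CHR core (TTTGAA or TTCGAA), known from genes of late cell cycle phases, for the CCAAT box, and for an E2F core known from replication genes. The E2F core was TTGGCGC or the variant TTCCCGC or the variant TTGCCGC or the variant TTCGCGC. The letters ATTGG, the reverse of the CCAAT box, can share letters with TTGGCGC. A CHR core was found in 17 of 24 cyclin, mitosis and chromosome genes (70.8%), in 2 of 13 replication genes (15.4%) and in 21.7% of all genes. An E2F core was found in 9 of 13 replication genes (69.2%), in 3 of the 24 others (12.5%) and in 10.9% of all genes. Over all 37 members, 19 (51.4%) held a CHR core and 12 (32.4%) an E2F core. A CCAAT box stood in 29 of the 37 members (78.4%) and in 41.1% of all genes, and 19 members (51.4%) held both a CCAAT box and a CHR core, as did 9.65% of all genes. None of the 37 members held the full estrogen response element GGTCANNNTGACC, which 20 of the 27025 genes did. The 6 members Birc5, Ccne1, Nusap1, Tk1, Tuba1b and Tyms held no CHR, CCAAT or E2F core. A match is a description of letters, not a binding site.

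**Figure D2:**
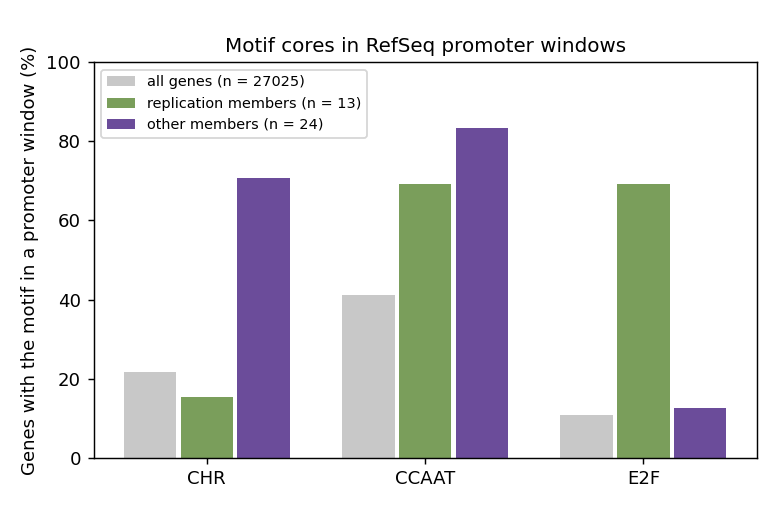
Share of genes (%) with a CHR, CCAAT or E2F core in a RefSeq promoter window, for all 27025 genes (grey), 13 replication members (green) and 24 other members (purple). The CHR core is commonest among the 24 other members at 70.8% and the E2F core among the 13 replication members at 69.2%.

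The stretch from 133 to 4 bases before the start is printed for 5 members, 5′ to 3′ along the gene, with CHR, CCAAT and E2F cores in capitals. Mki67, Cdk1 and Ube2c are shown because their levels differ so widely between the tables, Cdc20 as a checkpoint target and Mcm6 as a helicase gene. The 5 stretches lie on GRCm38.p6 at chr7:135716383-135716512 (- strand), chr10:69352916-69353045 (- strand), chr2:164769796-164769925 (+ strand), chr4:118437347-118437476 (- strand) and chr1:128359709-128359838 (- strand).
Mki67: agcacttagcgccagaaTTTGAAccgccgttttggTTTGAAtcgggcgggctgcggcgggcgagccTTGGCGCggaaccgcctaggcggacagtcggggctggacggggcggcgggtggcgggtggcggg
Cdk1: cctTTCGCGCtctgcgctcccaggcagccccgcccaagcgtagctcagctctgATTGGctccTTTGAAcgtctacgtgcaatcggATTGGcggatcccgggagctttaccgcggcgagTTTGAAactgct
Ube2c: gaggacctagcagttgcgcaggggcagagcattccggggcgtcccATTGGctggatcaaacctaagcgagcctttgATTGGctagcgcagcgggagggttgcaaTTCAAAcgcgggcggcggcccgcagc
Cdc20: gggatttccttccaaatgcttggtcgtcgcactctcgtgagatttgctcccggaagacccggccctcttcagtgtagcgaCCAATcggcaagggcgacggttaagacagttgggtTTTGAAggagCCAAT
Mcm6: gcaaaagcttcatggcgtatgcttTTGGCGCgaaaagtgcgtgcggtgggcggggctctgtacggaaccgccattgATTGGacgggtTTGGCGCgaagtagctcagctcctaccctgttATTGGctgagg
The first 4 carry CHR cores (TTTGAA, or its reverse TTCAAA in Ube2c) and Mcm6 carries a pair of TTGGCGC cores and no CHR core here. Mki67 and Cdk1 also hold an E2F core each in the stretch shown, and all but Mki67 hold a CCAAT box in it on 1 strand or the other.

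In muscle, no member passed the authors' FDR of 0.05. Only 9 members had an FDR, against 7107 genes in the authors' deposited table, of which 0.127% passed. By unadjusted p under 0.05, 4 of 44 members were higher and 2 were lower in the knockout samples, where 6.41% of all 13158 genes with a p were higher and 5.31% lower. Those shares lie close to the background. The member with the smallest p was Kif20a, a kinesin gene of the late mitotic midzone (level 31.6, log2 fold change 4.94, interval 1.5 to 8.39, p = 0.00486, FDR = 0.295 in the authors' deposited table). The end of its transcript overlaps Cdc23 on the opposite strand, and the sources used here do not say whether counting used strand.

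The muscle helicase genes did not share a direction. Of 9 licensing and helicase genes, 3 had positive and 6 negative log2 fold changes, with a median of -2.08. Mcm5 had -5.80 (level 9.08, p = 0.0185) and Mcm6, another subunit of the same ring, 4.53 (level 10.5, p = 0.0418) in the authors' deposited table. Neither of these 2 had an FDR. Mcm4 had 1.82 (p = 0.316), Mcm7 -2.63 (p = 0.161), Mcm3 -3.69 (p = 0.106) and the loading factors Cdc6 -3.09 (p = 0.194) and Cdt1 3.31 (p = 0.171) by the authors' deposited table. The genes of highest level in the list had values near 0: Tuba1b had 0.04 with an interval of -0.59 to 0.67, and Pcna 0.44 with an interval of -0.59 to 1.47. Among the nucleotide and fork genes 5 of 6 were positive, the highest being Uhrf1 at 1.76 with a level of 0.12. Rrm1 had -1.0 (interval -4.10 to 2.11), Hmgb2 -0.79 (interval -2.69 to 1.12) and Stmn1 -0.25 (interval -3.05 to 2.54).

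Among the muscle mitotic genes the fold changes were large, of both signs and loosely measured. Nusap1, a spindle microtubule protein gene, had 7.88 (level 10.9, p = 0.0189) and Top2a, the topoisomerase that untangles sister chromatids, 4.86 (level 10.1, p = 0.0254) in the authors' deposited table. Ube2c, the ubiquitin-conjugating enzyme of mitotic exit, had -5.10 (level 13.3, p = 0.0224) in the authors' deposited table. Birc5 had -3.39 (p = 0.131), Prc1, a midzone bundling protein gene, -2.44 (p = 0.289), Plk1, the Polo kinase, 5.49 (p = 0.0889) and Kif23, a midzone kinesin, 5.64 (p = 0.0834) in the authors' deposited table. For 13 of the 44 muscle members, among them Nusap1, Plk1, Kif23, Ccnb1, Cenpa and Cenpe, the mean implied for the other group lies under the smallest mean above 0 that this group has in the table (0.128 in controls), as it does for 21.99% of all 13158 genes. A fold change of this kind is one against a group at or near 0 and is no measure of size. Cdc20 had -0.12 (level 1.34, p = 0.955) in the authors' deposited table. All 3 centromere genes had positive values, Cenpf 4.02 (p = 0.0760), Cenpa 3.03 (p = 0.271) and Cenpe 3.02 (p = 0.280) in the authors' deposited table. Of the 6 mitotic kinase and checkpoint genes with a p, 5 were positive, 3 of them (Aurkb, Bub1b and Ttk) with the identical value of 1.76. Of the 8 spindle and midzone genes 5 were positive. Mki67 had 1.57 with an interval of -2.63 to 5.76. Of the 7 cyclin and kinase genes 6 were positive: Ccnb1 had 4.46 (p = 0.148), Ccnb2 0.47 (p = 0.841), Cks2, a small CDK subunit, 0.44 (p = 0.807) and Ccne2, a cyclin E gene, -1.07 (p = 0.646) in the authors' deposited table.

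**Figure D3:**
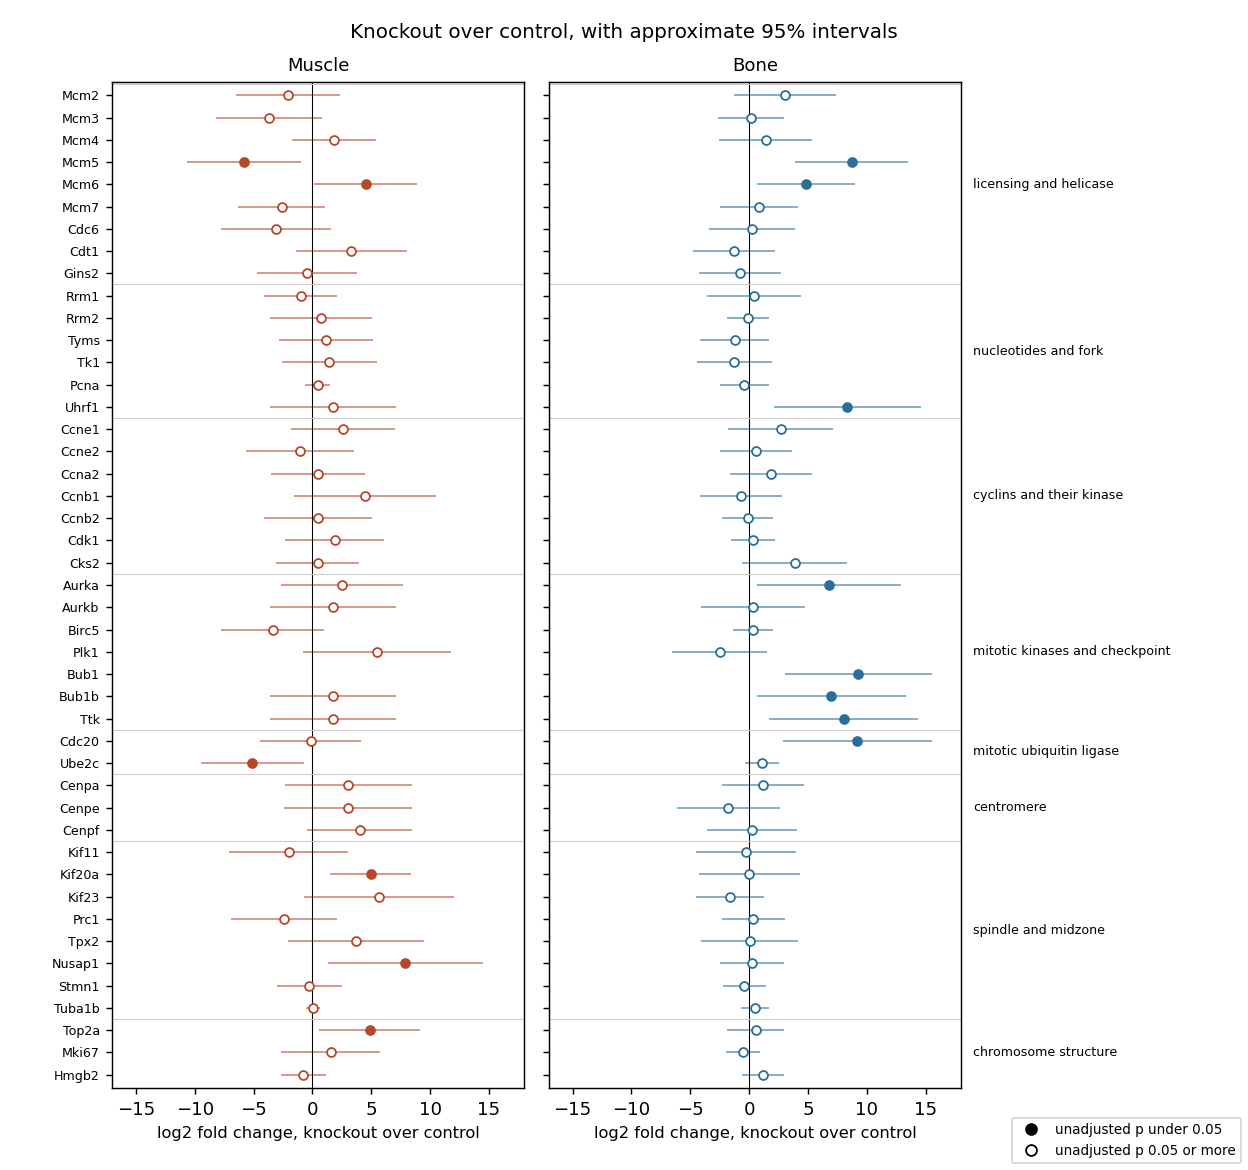
Each point is a log2 fold change of knockout over control in the authors' deposited tables for each cell division gene in muscle (left, 44 genes) and bone (right, 45 genes), with approximate 95% intervals as lines. Filled points have an unadjusted p under 0.05, 6 in muscle and 8 in bone, and Bub1 has no muscle value.

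The positive lean of the list in muscle sat at the lowest levels. Of 44 members with a p, 29 had a positive log2 fold change, against 53.5% of all 13158 genes, and the median was 1.28, against 0.12. Less the median of genes in the same decile of level, the members' median was 0.07, and it was 0.04 over the 9 members with an FDR. At levels up to 1, 13 of 14 members were positive, where 57.3% of 1514 genes were. Many of these levels lie on 1 ladder. The muscle value 0.108 recurs in 256 genes with a higher knockout mean, and levels that are whole multiples of it (within 0.0001 of a multiple) would also arise from reads of 1 library alone, which was not tested. Of the 13 members under 1 with a higher knockout mean, 10 lie on such a multiple: Aurkb, Bub1b and Ttk at 1, Aurka at 2, Cenpe at 3, Tk1 at 4, Tpx2 at 5, Cdk1 at 6, Mki67 at 8 and Ccnb1 at 9 times that value. Of the 867 genes under 1 with a higher knockout mean, 50.5% did. Some other markers moved in the muscle comparison too. Of 10 mesenchymal markers 9 were positive (median 0.62) and 4 were higher at p under 0.05, where 6.41% of all 13158 genes were. Of the 7 erythroid markers above 0, 6 were negative and 3 were lower at p under 0.05, where 5.31% of all genes were. At that p the neutrophil list held 1 lower and 0 higher, and the endothelial list 1 higher and 0 lower. The B-lineage and macrophage lists held none. The single satellite marker at p under 0.05 was Myod1, with -7.75 (p = 0.0163 in the authors' deposited table). Their part in the members' values was not tested.

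In bone, no member passed the authors' FDR of 0.05 either, although all 45 had an FDR. Of 8534 genes with one in the authors' deposited table, 0.0352% passed. By unadjusted p under 0.05, 8 of 45 members were higher and none lower in the knockout samples, where 28.8% of 10518 genes were higher and 4.2% lower. The members' share was thus below that of all genes, but the latter depends on level. At levels of 1 to 10, 57.4% of genes had a p under 0.05 in either direction, as did all 4 members there. At 10 to 50, 34.0% of genes and 3 of 14 members did. At 50 to 100 these were 9.84% and 1 of 13, and above 100 they were 5.56% and 0 of 14. The 8 members with a p under 0.05 are also those with an FDR under 0.1, which 32.2% of the 8534 genes had. The median log2 fold change of the members was 0.33, against 2.51 over all genes with a p, and 31 of 45 were positive, against 69.7%. With genes of level at least 50 alone, the median was 0.27 over 27 members and -0.20 over 1653 genes.

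The 8 bone genes with a p under 0.05 were 3 replication genes and 5 genes of the mitotic kinase, checkpoint and ubiquitin ligase groups. Mcm5 had the smallest p, with 8.71 (level 44.7, interval 3.89 to 13.53, p = 0.000398, FDR = 0.0784 in the authors' deposited table), and Mcm6 had 4.84 (level 63.8, p = 0.0236). Bub1 had 9.29 (level 16.4, p = 0.00365), Cdc20 9.20 (level 15.6, p = 0.00421) and Uhrf1, which keeps DNA methylation through replication, 8.32 (level 7.93, p = 0.00902) in the authors' deposited table. Ttk had 8.02 (level 7.42, p = 0.0133), Aurka 6.79 (level 3.03, p = 0.0296) and Bub1b 6.99 (level 3.44, p = 0.0297) in the authors' deposited table. For 7 of these 8, all but Mcm6, the level divided by the fold change falls under 0.115, the smallest control mean above 0 in that table. Such a fold change is one against a group at or near 0 and is no measure of size. The same held for 91.5% of the 3032 bone genes with a p under 0.05 and a higher knockout mean.

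The bone members with a level above 100 had fold changes of both signs, all with intervals that held 0. Mki67 had -0.52 (interval -1.98 to 0.93), Cdk1 0.30 (interval -1.57 to 2.16), Birc5 0.32 (interval -1.38 to 2.02) and Rrm2 -0.06 (interval -1.84 to 1.72). Tuba1b had 0.52 with an interval of -0.68 to 1.73, and Pcna -0.40 with an interval of -2.45 to 1.65. The nucleotide and fork genes split 2 positive to 4 negative, the lowest being Tk1, thymidine kinase, at -1.25 (p = 0.436 in the authors' deposited table). Ube2c had 1.10 (interval -0.33 to 2.54) and Hmgb2 1.20 (interval -0.56 to 2.96). Of the 14 members with a level above 100, 6 were positive, with a median of -0.10, and none had a p under 0.05, beside 5.56% of the 738 genes of that level. Among the licensing genes Cdt1 had the highest level and the lowest value, -1.29 (level 93.7, p = 0.467), and Mcm3, next in level, had 0.19 (level 92.1, p = 0.894) in the authors' deposited table. Ccnb2 had -0.13 (p = 0.906), Ccnb1 -0.71 (p = 0.690), Cenpa 1.18 (p = 0.508) and Stmn1 -0.40 (p = 0.675) in the authors' deposited table. The most negative values were those of Plk1, -2.49 (p = 0.227), Cenpe, -1.76 (p = 0.429) and Kif23, -1.59 (p = 0.281) in the authors' deposited table. Cks2 had 3.86 (p = 0.0877), Mcm2 3.02 (p = 0.172) and Ccne1, a cyclin E gene, 2.68 (p = 0.237) in the authors' deposited table. In the same comparison all 10 erythroid markers were positive (median 0.91, none at p under 0.05) and all 10 neutrophil markers were (median 2.99, 7 at p under 0.05), against 69.7% positive and 28.8% higher at p under 0.05 over all genes. Of the 8 macrophage markers 7 were positive and 6 at p under 0.05, but their median of 6.39 came to 0.41 less the median of genes of the same decile of level. Their part in the members' values was not tested.

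**Figure D4:**
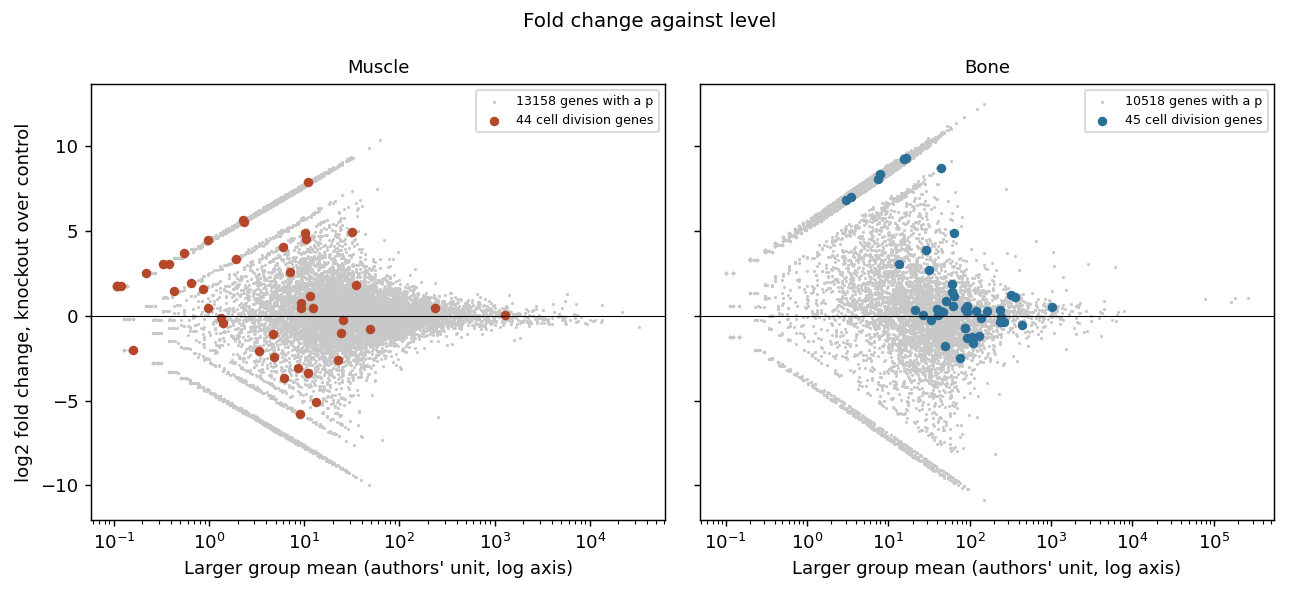
Points plot log2 fold change of knockout over control against the larger group mean (log axis) in the authors' deposited tables, for all genes with a p (grey) and the cell division genes (coloured), in muscle (left) and bone (right). The bone members of large fold change, Bub1, Cdc20, Ttk, Uhrf1, Aurka and Bub1b, lie on the straight upper band of the grey points, and the 14 members with a level above 100 lie on both sides of 0, between -1.59 and 1.20.

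The 2 tissues were compared gene by gene for the 44 members with a p in both. The difference between the 2 log2 fold changes was divided by its approximate error, a normal approximation chosen after the data were seen. Of 9598 genes, none passed an adjusted p of 0.05 (0%) and 24.6% had an unadjusted p under 0.05. Among the members 6 did, Mcm5, Ube2c, Cdc20, Nusap1, Plk1 and Kif23. For 5 of these 6, all but Ube2c, the fold change in 1 tissue is one against a group at or near 0 (Mcm5 and Cdc20 in bone, Nusap1, Plk1 and Kif23 in muscle), so neither the gap nor its approximate p can be read as a size. Ube2c had -5.10 in muscle and 1.10 in bone by the authors' deposited tables, with an adjusted p of 0.106 for the gap. Its transcript end matches 9 other genes, so its values may include their reads. The smallest adjusted p of any member was 0.0786 (Benjamini-Hochberg over the 9598 genes). Mcm6 was positive in both, 4.53 and 4.84, and Tuba1b was near 0 in both, 0.04 and 0.52. The 2 values had the same sign in 21 of 44 members, and in 51.3% of all 9598 genes.

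Other genes of the pathway, from lists beside the 45, showed the gap in levels for mitosis and less of one for replication. Of 32 further mitosis genes, 27 were above 0 in muscle with a median level of 0.280 over the list, and 30 in bone with a median of 32.0, in the authors' deposited tables. Of 23 further replication genes, 20 were above 0 in muscle (median 7.06) and 22 in bone (median 9.10). None of either list passed the FDR in either tissue. By unadjusted p under 0.05, the further replication genes held 4 higher and 0 lower in muscle and 10 higher and 0 lower in bone, beside the 6.41%, 5.31%, 28.8% and 4.2% of all genes. The further mitosis genes held 0 higher and 1 lower in muscle and 4 higher and 1 lower in bone. The transcription factor list held the single gene past the FDR, E2f5, an E2F family gene, with -7.17 in muscle (level 40.4, FDR = 0.0281), and E2f5 was listed at 0 in bone. Foxm1, an activator of mitotic genes, had 0.108 in muscle and 61.4, the control mean, in bone. Mybl2, a partner in that activation, was listed at 0 in muscle and at 14.4, the knockout mean (log2 fold change 8.85), in bone. Levels in these lists too are those of the higher group only.

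The G1 regulators, which include the cyclin kinase inhibitors, stood in the upper part of both tables by their median, but not every inhibitor did. The median percentile of the list was 76.2 in muscle and 73.6 in bone. Cdkn2a, an inhibitor gene, was listed at 0 in both tables, and Cdkn2b at 1.99 in muscle and 0 in bone. Cdkn2c stood at percentiles 39.7 in muscle and 50.3 in bone, and Cdkn2d at 83.8 and 94.3. Of 22 G1 and brake genes, 21 were above 0 in muscle with a median level of 50.3, and 19 in bone with a median of 28.2. Cdkn1a, the p21 inhibitor of cyclin kinases, had 696 in muscle and 82.4 in bone, and Cdkn1c, the p57 inhibitor, 78.1 and 0.706 (the authors' deposited tables). Cdkn1b, the p27 inhibitor, had 162 in muscle and 218 in bone. Their muscle log2 fold changes were -0.28 (p = 0.362), -0.09 (p = 0.909) and -0.74 (p = 0.176) in the authors' deposited table. No gene of this list passed the FDR in either tissue. By unadjusted p under 0.05 it held 1 higher and 0 lower in muscle, and 4 higher and 1 lower in bone, of 21 and 19 genes with a p, beside 6.41%, 5.31%, 28.8% and 4.2% of all genes. Of the genes so counted, fold changes are given for Rb1, the retinoblastoma gene (5.61 in muscle), and Gas1, a growth arrest gene (-2.76 in bone). Both were chosen after their values were seen.

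For 15 of the 45 members the value may include reads of another gene. In GENCODE M21, 11 have other genes' transcripts that match the last 300 bases over at least 75 bases at 95% identity, and the end of 6 overlaps exons of another gene. Tuba1b shares its end with Tuba1a and 6 predicted genes, Hmgb2 with 5 predicted genes, Ccnb1 with 5 copies, Ube2c with 9 genes and Mcm5 with 12 genes. The ends of Mcm7 and Cdc20 overlap Cops6 and Elovl1 on the opposite strand. Without these 15 the members' median percentile was 15.7 in muscle and 87.5 in bone, so the gap between the tables was no smaller.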

How the data were processed

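The series holds 12 samples in 4 groups of 3, muscle and bone, control and knockout. Per the labels' protocols the library kit was a 3' mRNA-seq one, so a value reflects transcript ends. The submitters' processing notes name GRCm38 and mm10, but 44 of 45 member starts in the tables differ from GENCODE M21 (GRCm38), so the tables' coordinates were not printed. The sources used here name no aligner, counter or test. Per the file headers, the authors' log2 fold change is knockout over control, and the p-value, FDR and Bonferroni p are the authors' deposited values. The larger group mean is a deposited score with no unit named. The tables hold 48 library columns whose codes match no label; they were not used, so depth is not given, and the planned edgeR fit was replaced by the authors' deposited comparison.

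The members and lists were chosen with earlier results of these data known. Values of some single markers are not reported here. A gene passed at an FDR under 0.05. Other rules were also counted: FDR under 0.1, Bonferroni, Benjamini-Hochberg over all genes with a p, and unadjusted p under 0.05. Approximate errors are the log2 fold change divided by the normal quantile of its p, a calculation tested on simulated data. Named by rule were members with p under 0.05, the 2 of highest level and the largest positive and negative log2 fold change in each of 8 role groups. Mcm3, Cdc6, Cdt1, Kif23, Stmn1, Cenpe and Mki67 in muscle and Mcm2 and Ccne1 in bone were named beside these after their values were seen. Transcript ends were compared with BLAST 2.17.0. Python 3.11.15, pandas 2.3.3, scipy 1.17.1 and matplotlib 3.10.9 were used.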

Additional observations from a re-analysis of the deposited data

How the results depend on the processing

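No member passed in muscle or bone at the authors' FDR of 0.05, by Benjamini-Hochberg over all genes with a p, by the Bonferroni p, or without the 15 members with shared or overlapping transcript ends, an alternative chosen after seeing the data. In bone 8 of 45 members passed at an FDR under 0.1, beside 32.2% of all genes with an FDR. None of 9 did in muscle, beside 0.183%. By unadjusted p under 0.05 there were 6 of 44 in muscle and 8 of 45 in bone, beside 11.7% and 33.0% of all genes with a p. The muscle median log2 fold change of 1.28 was 0.44 at levels of at least 10 (15 members), 0.24 at levels of at least 50 (2 members), 0.0408 over the 9 members with an FDR, 0.0712 less the median of genes of the same decile of level, and 1.76 without the 15 members. These settings used fewer members, except the one by decile of level, which kept all 44. The cause of the shifts was not tested. The bone median of 0.33 stayed between 0.27 and 0.34 in the same settings. The muscle percentile of 24.9 was 15.7 without the 15 members, and the bone percentile of 88.3 was 87.5. Percentiles among genes with a p were the same, since these are the genes above 0. No paired analysis was possible because the library columns carry codes that match no sample or replicate number. For the same reason the count-based fits with DESeq2, without a filter or without each replicate in turn were not run. Low levels limit what can be seen in muscle, where 14 members lie above 0 and at or under a level of 1, and the intervals there span several log2 units.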
